A study of Mus musculus with 18 samples.

Results

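The DEAD and DEAH box RNA helicases were followed across the hypothalamus of 2 mouse strains at 2 times. Members were all genes whose symbol begins with *Ddx* or *Dhx* and a number, leaving out the Y-linked *Ddx3y*, taken from probesets that carry 1 gene symbol in the platform annotation. This gave 51 genes of 19937, 35 named *Ddx* and 16 named *Dhx*. The rule used no measured difference, but the family was chosen with earlier results of these data known. A gene with several probesets was read at the one with the highest mean over the 18 arrays, which was needed for 4 members. Of the 51 members, 47 had a mean level over the 40th percentile of all probesets, and the dim ones were *Ddx4*, *Ddx43*, *Ddx60* and *Dhx58*.

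BPH/2J is an inbred hypertensive strain and BPN/3J is its normotensive control. Each of 18 arrays (Affymetrix Mouse Gene 1.0 ST) held hypothalamic RNA of a single male mouse, untreated and not pooled. At ‘peak’ BP, in the active period, 6 mice per strain were taken at an age of 26 weeks, and at ‘trough’ BP, in the inactive period, 3 per strain. The age of the latter is given as 18 weeks with the samples but as 19 weeks with the series, so time of day and age cannot be told apart in any comparison of ‘peak’ with ‘trough’ BP. The strain was read from the titles, which a second label of the BPN/3J ‘trough’ mice contradicts. Mice are named by the number in their titles. In bulk tissue, fewer cells of a type and less RNA per cell cannot be told apart.

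RNA helicases of these families use ATP to open short RNA duplexes or to displace proteins from RNA, and are named after the amino acids of a conserved ATPase motif. Most act as fixed parts of the machinery that splices pre-mRNA, assembles ribosomes, exports, translates and degrades mRNA. A few have narrower roles, in the sensing of viral RNA or in germ cells. Members are described below by these roles. Levels are RMA values on the log2 scale, a difference of 1 is a doubling, and levels are compared between mice for a given gene and never between genes. A gene was called at a limma p under 0.05 after Benjamini-Hochberg adjustment over all 34760 probesets, and errors of differences are standard errors (SE).

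Neuronal markers had summed levels of 21540 to 25020 in linear units over 6 genes in the 18 mice, and 1 of the 6 was called higher at ‘peak’ BP in BPH/2J and 2 lower in BPN/3J. Markers of tissue next to the hypothalamus varied more. The summed level of 5 choroid plexus markers ran from 337.4 to 13220 over the ‘peak’ mice of BPN/3J and over a similar span in the other groups, and 5 pituitary markers summed to 6431 in BPN/3J ‘trough’ mouse 3 against 208.1 to 621.7 in the other 17 mice. Markers of hypothalamic nuclei were higher at ‘peak’ BP in BPH/2J for 7 of 8 genes, with a median difference of 0.58 and 2 called. Meningeal markers were lower there for 5 of 5 genes, with a median of -0.65 and 2 called. Differences were positive for 0 of 4 oligodendrocyte, 0 of 5 choroid plexus and 0 of 4 thalamus markers, with medians of -0.33, -0.09 and -0.10. Summed oligodendrocyte, microglial and endothelial markers were 6646 to 6995, 1400 to 1508 and 1357 to 1419 at ‘trough’ BP in BPH/2J. At ‘peak’ BP they were lower with no overlap, at 4352 to 6569, 1202 to 1309 and 1044 to 1210. In BPN/3J pituitary markers were lower at ‘peak’ BP for 5 of 5 genes, with a median of -1.12 and 2 called, while 4 of 8 markers of hypothalamic nuclei were positive, with a median of -0.09 and 0 called in limma. Between the strains 0 markers of any list were called in limma. Markers of hypothalamic nuclei were positive there for 8 of 8 genes at ‘peak’ BP, with a median of 0.73, and pituitary markers were negative for 5 of 5 at ‘trough’ BP, with a median of -1.004. Also at ‘trough’ BP, oligodendrocyte markers were positive for 4 of 4 genes and microglial markers for 5 of 5, with medians of 0.32 and 0.18. At ‘peak’ BP choroid plexus and meningeal markers were positive for 0 of 5 genes each, with medians of -0.34 and -0.09. The part of any of these markers in the differences below was not tested.

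**Figure D1:**
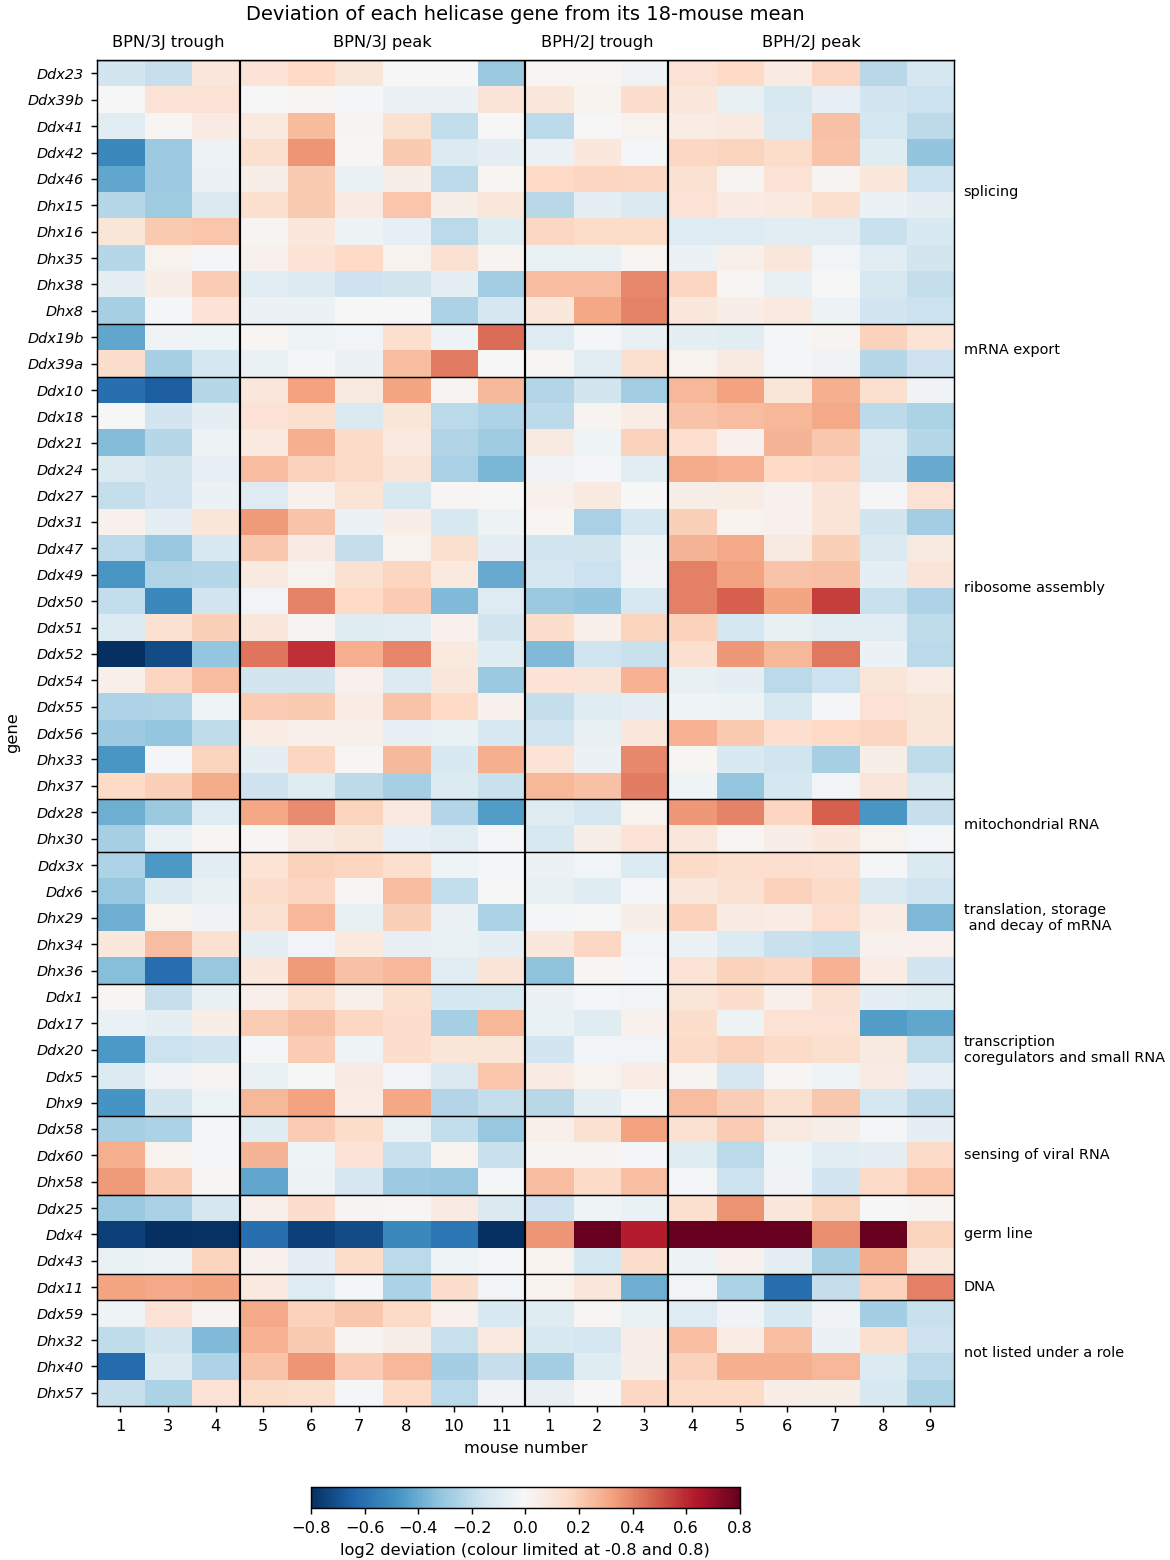
Heat map of the 51 helicase genes, in rows grouped by role, over the 18 mice, in columns grouped by strain and time. Colour is the log2 deviation of a mouse from the gene's mean over all mice, limited at -0.8 and 0.8. *Ddx4* separates the strains, and *Ddx10*, *Ddx52* and *Dhx36* are lowest in BPN/3J ‘trough’ mice 1 and 3.

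The comparison of ‘peak’ with ‘trough’ BP asks how helicase mRNA differed between the active and the inactive period. In BPH/2J mice 1 member rose and 3 fell at ‘peak’ BP, which is 7.84% of the members against 10.2% of all genes called in that comparison (4.63% higher and 5.61% lower). *Ddx10* rose, and *Dhx37*, *Dhx16* and *Dhx38* fell. Of the members 31 had a positive difference and 20 a negative one, and their median was 0.04 against -0.02 over all genes. In BPN/3J mice 10 members rose and 3 fell, which is 25.5% against 28.7% of all genes (13.9% higher and 14.7% lower). The called split moved with the scaling of the arrays: quantile normalization gave 1 higher and 5 lower in BPH/2J and 7 and 6 in BPN/3J, and median centring gave 1 and 1, and 13 and 2. The shares of all genes moved as well. Quantile normalization called 5.02% of all genes higher and 6.25% lower in BPH/2J, and 11.2% and 15.7% in BPN/3J. Median centring called 3.98% and 2.81% in BPH/2J, and 16.9% and 7.86% in BPN/3J. In BPN/3J the sign was positive for 39 members and negative for 12, and the median was 0.15 where all genes had -0.04. Without BPH/2J ‘trough’ mouse 1, 2 or 3 there were 0 members higher, with 1, 1 and 0 lower, and 0 were higher without ‘peak’ mouse 4, 5 or 7 and 2 without ‘peak’ mouse 9. In BPN/3J 5 were higher without ‘trough’ mouse 3, whose pituitary markers were high, and 5 without ‘trough’ mouse 1, whose pituitary markers summed to 374.4, with 1 and 2 lower. The shares of all genes fell too, to 8.07% and 6.73% higher and 5.6% and 6.25% lower. The part of pituitary tissue in these calls was not tested. Without the 4 higher-numbered ‘peak’ mice the split in BPH/2J turned, to 12 higher and 4 lower, and in BPN/3J it was 21 and 5, which is 31.4% and 51% of the members against 23.1% and 41.8% of all genes. Those 4 were the ‘peak’ mice low in the members, so that this fit is not an independent check. Array weights gave 9 and 7 in BPH/2J and 27 and 7 in BPN/3J, 31.4% and 66.7% against 30.8% and 60.5%. Those weights ran from 0.299 to 9.44, the highest for BPN/3J ‘trough’ mouse 3. The share of members called was thus below that of all genes in the reported fit and above it in these. At an unadjusted p under 0.05 there were 8 members higher and 6 lower in BPH/2J and 17 higher and 6 lower in BPN/3J, against 26% and 44% of all genes in either direction.

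The 2 strains share 3 called members, *Ddx10*, *Dhx37* and *Dhx16*, each in the same direction. *Dhx38* was called in BPH/2J alone, 10 members in BPN/3J alone and 37 in neither. The sign was the same in both strains for 41 of the 51 members. Overlap and shared sign were not counted over all genes, of which 10.2% were called in BPH/2J and 28.7% in BPN/3J. Whether the members differ from all genes in this was therefore not tested. *Ddx* genes were positive for 23 of 35 in BPH/2J and 29 of 35 in BPN/3J, and *Dhx* genes for 8 of 16 and 10 of 16. The 6 called decreases were those of *Dhx37* and *Dhx16*, each counted in both strains, *Dhx38* in BPH/2J and *Dhx58* in BPN/3J. That all were *Dhx* genes depends on the probeset read. The second *Ddx54* probeset was called lower in BPN/3J (-0.56, adjusted p = 0.016), where the one read had -0.25 (adjusted p = 0.063). With the mean of a gene's probesets 4 members were lower in BPN/3J.

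**Figure D2:**
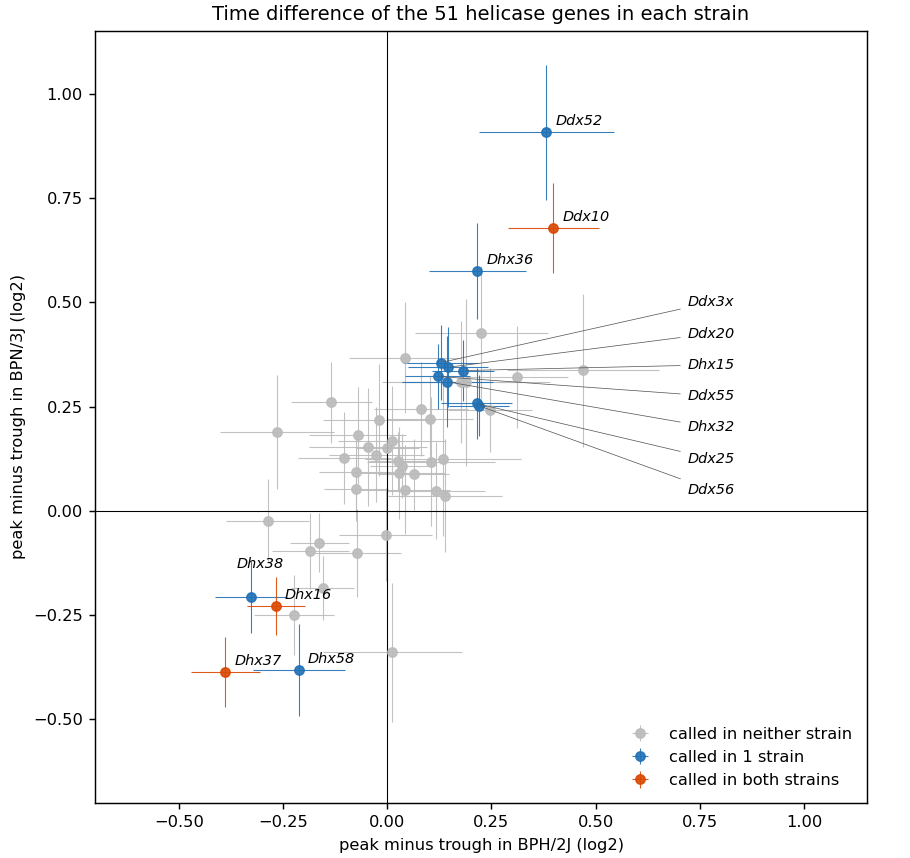
Difference between ‘peak’ and ‘trough’ BP (log2) of each of the 51 helicase genes in BPH/2J (horizontal axis) and BPN/3J (vertical axis), with bars of 1 SE. Orange points were called in both strains, blue points in 1 strain and grey points in neither. *Ddx10* lies at 0.40 and 0.68, *Ddx52* at 0.38 and 0.91, and *Dhx37* at -0.39 and -0.39.

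The sequences around the transcription starts are shown for the 3 members called in both strains and for *Ddx4*, the member that separates the strains, since the results turn on these. RefSeq promoters of GRCm38.p6, from 250 bases before to 50 after the start, were read for 45 of the 51 members, 56 promoters in all, and not for *Ddx11*, *Ddx23*, *Ddx39a*, *Ddx6*, *Dhx38* and *Dhx58*. Capitals mark matches on either strand to the E-box CACGTG, the cAMP response element TGACGTCA, the D-box TTATGTAA, the CCAAT box, the GC box GGGCGG and the ETS site CCGGAAG.
*Dhx37*, chr5:125433999-125434298, minus strand: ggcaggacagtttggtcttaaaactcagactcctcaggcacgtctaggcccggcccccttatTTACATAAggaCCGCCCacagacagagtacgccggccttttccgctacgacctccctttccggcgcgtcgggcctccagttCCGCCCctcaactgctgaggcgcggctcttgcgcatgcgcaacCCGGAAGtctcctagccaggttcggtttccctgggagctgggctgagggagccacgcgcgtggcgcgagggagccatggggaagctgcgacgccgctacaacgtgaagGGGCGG
*Ddx10*, chr9:53248063-53248362, minus strand: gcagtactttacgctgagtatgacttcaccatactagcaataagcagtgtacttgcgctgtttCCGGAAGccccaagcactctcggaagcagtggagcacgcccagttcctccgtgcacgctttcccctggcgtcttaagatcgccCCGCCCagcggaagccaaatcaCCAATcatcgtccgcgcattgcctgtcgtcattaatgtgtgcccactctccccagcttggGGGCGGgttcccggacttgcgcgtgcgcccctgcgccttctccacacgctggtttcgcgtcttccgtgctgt
*Dhx16*, chr17:35879528-35879827, plus strand: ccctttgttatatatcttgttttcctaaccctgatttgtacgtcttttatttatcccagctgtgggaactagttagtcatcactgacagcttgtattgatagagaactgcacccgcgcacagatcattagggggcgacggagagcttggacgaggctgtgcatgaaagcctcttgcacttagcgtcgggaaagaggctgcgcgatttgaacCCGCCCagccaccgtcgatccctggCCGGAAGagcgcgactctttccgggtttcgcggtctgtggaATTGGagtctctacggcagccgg
*Ddx4*, chr13:112652261-112652560, minus strand: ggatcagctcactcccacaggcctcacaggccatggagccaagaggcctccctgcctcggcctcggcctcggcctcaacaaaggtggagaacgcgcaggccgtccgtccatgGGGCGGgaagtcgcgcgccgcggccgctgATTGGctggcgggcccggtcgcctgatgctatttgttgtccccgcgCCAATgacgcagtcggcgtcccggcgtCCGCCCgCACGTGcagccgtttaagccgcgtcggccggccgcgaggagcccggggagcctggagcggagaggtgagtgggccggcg

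*Ddx4* held 1 E-box, 2 CCAAT boxes and 2 GC boxes, with 38 CpG dinucleotides and 72% G and C. *Dhx37* held 1 D-box, 3 GC boxes and 1 ETS site. *Ddx10* held 1 CCAAT box, 2 GC boxes and 1 ETS site, and *Dhx16* 1 of each of these 3. An ETS site was found in all 3 genes called in both strains, of which *Ddx10* rose and *Dhx37* and *Dhx16* fell. These 3 were picked by their calls, and a link of the site with the calls was not tested. An ETS site was in 37.5% of the 56 member promoters, where some genes had several promoters, and in 8.86% of all 32851 promoters. An E-box was in 12.5% of member promoters and 7.15% of all, a cAMP response element in 8.93% and 1.79%, and a D-box in 1.79% and 0.938%. CCAAT boxes were in 46.4% and 37.4%, and GC boxes in 58.9% and 35.7%. Member promoters were richer in CpG, with a median of 24 against 7, so that shares of motifs holding CG are not comparable on equal terms. A match is a description of letters and not of binding.

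Helicases of ribosome assembly formed the largest group, with 16 members. They act in the nucleolus on pre-ribosomal RNA, and 11 of them had a positive difference in BPH/2J and 13 in BPN/3J, with medians of 0.12 and 0.20. In BPH/2J 1 was called higher and 1 lower, and in BPN/3J 4 were called higher and 1 lower, which is 12.5% and 31.2% of the group against 10.2% and 28.7% of all genes. *Ddx10*, the relative of a yeast factor of the small subunit precursor, was the member called higher in both strains. Its levels in BPH/2J were 8.35, 8.44 and 8.32 in ‘trough’ mice 1, 2 and 3, and 8.56, 8.79 and 8.92 as the lowest, median and highest of the 6 ‘peak’ mice. In BPN/3J they were 7.99, 7.93 and 8.36 in ‘trough’ mice 1, 3 and 4, against 8.62, 8.76 and 8.92 at ‘peak’ BP. Every ‘peak’ mouse lay above every ‘trough’ mouse of its strain. The difference was 0.40 (SE 0.11, adjusted p = 0.030) in BPH/2J and 0.68 (SE 0.11, adjusted p = 0.00080) in BPN/3J. The call in BPN/3J held without any 1 mouse, while that in BPH/2J was lost without ‘trough’ mouse 1 (adjusted p = 0.122), 2 (0.068) or 3 (0.122) or ‘peak’ mouse 4 (0.057), 5 (0.065) or 7 (0.062), with differences from 0.37 to 0.43.

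*Dhx37*, which releases the U3 small nucleolar RNA from the small subunit precursor, fell in both strains. It had levels of 8.41, 8.37 and 8.55 in the BPH/2J ‘trough’ mice and of 7.83, 8.07 and 8.24 as the lowest, median and highest at ‘peak’ BP. The BPN/3J ‘trough’ mice had 8.30, 8.33 and 8.44, against 7.88, 7.97 and 8.04 at ‘peak’ BP. No ‘peak’ mouse of either strain reached the lowest ‘trough’ mouse. The differences were -0.39 (SE 0.08, adjusted p = 0.0086) in BPH/2J and -0.39 (SE 0.08, adjusted p = 0.0046) in BPN/3J. Without BPH/2J ‘trough’ mouse 3 the former was -0.34 (adjusted p = 0.063).

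*Ddx52*, another small subunit factor, had the largest difference of any member in BPN/3J. Its BPN/3J levels were 7.14, 7.27 and 7.68 in ‘trough’ mice 1, 3 and 4, and 7.89, 8.33 and 8.58 as the lowest, median and highest at ‘peak’ BP. The groups did not overlap, and the difference was 0.91 (SE 0.16, adjusted p = 0.0016), a 1.88-fold higher level. In BPH/2J the ‘trough’ mice had 7.64, 7.83 and 7.81 and the ‘peak’ mice 7.77, 8.19 and 8.41. There ‘peak’ mouse 9 fell among the ‘trough’ mice, and the difference of 0.38 (SE 0.16, adjusted p = 0.16) did not pass.

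*Ddx55* and *Ddx56*, relatives of yeast factors of the large subunit, were called in BPN/3J. *Ddx55* had levels of 7.37, 7.38 and 7.59 at ‘trough’ BP and of 7.65, 7.80 and 7.85 at ‘peak’ BP, a difference of 0.32 (SE 0.08, adjusted p = 0.0087). Neither its groups nor those of *Ddx56* overlapped. *Ddx56* had levels of 8.90, 8.88 and 8.98 at ‘trough’ BP and of 9.06, 9.18 and 9.24 at ‘peak’ BP, a difference of 0.25 (SE 0.07, adjusted p = 0.020). Both calls were lost without BPN/3J ‘trough’ mouse 1 or 3, narrowly for *Ddx55* (adjusted p = 0.052 both times) and at 0.079 and 0.085 for *Ddx56*, and *Ddx56* was also lost after quantile normalization (difference 0.14, adjusted p = 0.13). In BPH/2J the difference of *Ddx56* was 0.22 (adjusted p = 0.071), with groups that did not overlap. *Ddx50*, a nucleolar helicase, had the largest difference of the members in BPH/2J, 0.47, with an SE of 0.18 and an adjusted p of 0.12. It passed without BPH/2J ‘peak’ mouse 9 (0.56, adjusted p = 0.049).

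**Figure D3:**
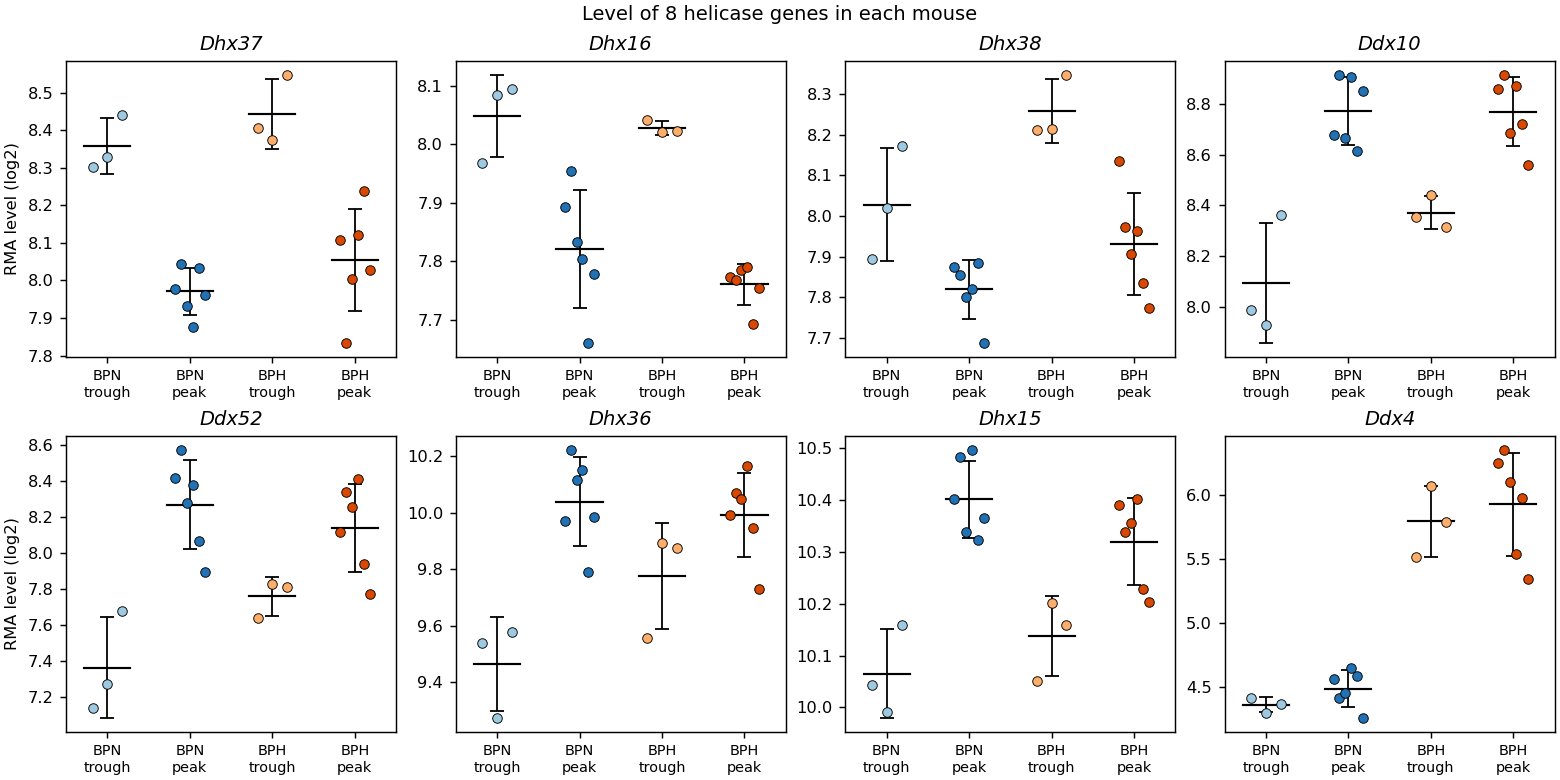
RMA level (log2) of 8 helicase genes in each mouse, by strain and time. Points are single mice, horizontal lines are group means and bars are 1 SD (n = 6 at ‘peak’ and n = 3 at ‘trough’ BP). *Dhx37* and *Dhx16* are lower and *Ddx10* is higher at ‘peak’ BP in both strains with no overlap, and *Ddx4* differs between the strains at both times.

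Splicing helicases drive the spliceosome from one state to the next, and the 10 members of this group had differences of mixed sign. In BPH/2J 5 were positive and 5 negative, with 2 called lower. In BPN/3J 6 were positive and 4 negative, with 1 called higher and 1 lower, so that 20% of the group was called in each strain, against 10.2% and 28.7% of all genes. *Dhx16*, which remodels the spliceosome before the first cutting step, fell in both strains. Its BPH/2J ‘trough’ mice had 8.04, 8.02 and 8.02, and the lowest, median and highest at ‘peak’ BP were 7.69, 7.77 and 7.79. In BPN/3J the ‘trough’ mice had 7.97, 8.08 and 8.09, against 7.66, 7.82 and 7.96 at ‘peak’ BP. All ‘peak’ mice were below all ‘trough’ mice in both strains. The differences were -0.27 (SE 0.07, adjusted p = 0.024) and -0.23 (SE 0.07, adjusted p = 0.026). Median centring of the arrays ended both calls, with -0.21 (adjusted p = 0.18) and -0.13 (adjusted p = 0.29). Leaving out a mouse ended the BPH/2J call for ‘trough’ mouse 1 (adjusted p = 0.11), 2 (0.079) or 3 (0.082), and the BPN/3J call for ‘trough’ mouse 3 (0.098) or 4 (0.072).

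*Dhx38*, which acts between the 2 chemical steps of splicing, was at 8.21, 8.21 and 8.35 in the BPH/2J ‘trough’ mice and at 7.77, 7.94 and 8.14 as the lowest, median and highest of the ‘peak’ mice. The groups did not overlap, and the difference was -0.33 (SE 0.09, adjusted p = 0.026). The call was lost after median centring (-0.27, adjusted p = 0.17) and without ‘trough’ mouse 1 (adjusted p = 0.079), 2 (0.068) or 3 (0.13). In BPN/3J its difference was -0.21 (adjusted p = 0.084), again with no overlap. *Dhx15*, which takes spent spliceosomes apart, stood against these: it rose in BPN/3J, from 10.04, 9.99 and 10.16 at ‘trough’ BP to 10.32, 10.38 and 10.50 at ‘peak’ BP. This difference was 0.34 (SE 0.07, adjusted p = 0.0050), with no overlap, and it passed without any 1 mouse. Its difference in BPH/2J was 0.18 (adjusted p = 0.14). *Dhx8*, which frees the spliced mRNA, had -0.29 in BPH/2J (adjusted p = 0.083) and -0.02 in BPN/3J (adjusted p = 0.88).

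*Ddx46*, which helps the U2 particle to bind the branch site, had opposite signs in the strains. Its BPH/2J levels were 9.22, 9.23 and 9.22 at ‘trough’ BP and 8.89, 9.11 and 9.18 at ‘peak’ BP, so that all ‘peak’ mice lay lower. In BPN/3J they were 8.64, 8.76 and 9.01 at ‘trough’ BP and 8.85, 9.09 and 9.27 at ‘peak’ BP, with overlap. The differences were -0.13 (SE 0.10, adjusted p = 0.45) and 0.26 (SE 0.10, adjusted p = 0.058), and neither passed. That of BPN/3J passed without BPN/3J ‘trough’ mouse 4 (0.36, adjusted p = 0.018), BPN/3J ‘peak’ mouse 10 (0.30, 0.026) or BPH/2J ‘peak’ mouse 9 (0.26, 0.046). *Ddx42*, another partner of the U2 particle, had 0.37 in BPN/3J (adjusted p = 0.053) and 0.04 in BPH/2J. It passed without BPN/3J ‘trough’ mouse 4 (0.49, adjusted p = 0.024), BPN/3J ‘peak’ mouse 10 (0.41, 0.038) or 11 (0.40, 0.041), or BPH/2J ‘peak’ mouse 9 (0.37, 0.031).

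The 5 helicases of translation, storage and decay of mRNA included 2 that rose in BPN/3J, 40% of the group against 28.7% of all genes, and 0 called in BPH/2J in limma, where 0 also had an unadjusted p under 0.05. *Dhx36*, which unwinds G-quadruplex structures, was at 9.54, 9.27 and 9.58 in BPN/3J ‘trough’ mice 1, 3 and 4, and at 9.79, 10.05 and 10.22 as the lowest, median and highest at ‘peak’ BP. The groups did not overlap, the difference was 0.58 (SE 0.12, adjusted p = 0.0031), and the call held without any 1 mouse. In BPH/2J the ‘trough’ mice had 9.56, 9.89 and 9.88. Of these 2 lay above the lowest ‘peak’ mouse at 9.73, and the difference was 0.22 (adjusted p = 0.28). *Ddx3x*, an X-linked helicase that helps translation to start on structured mRNAs, was at 10.840, 10.631 and 11.002 at ‘trough’ BP in BPN/3J and at 11.054, 11.209 and 11.274 at ‘peak’ BP. Its difference there was 0.36 (SE 0.09, adjusted p = 0.011) with no overlap, and without ‘trough’ mouse 3 it was 0.26 (adjusted p = 0.082). The second *Ddx3x* probeset gave 0.46 (adjusted p = 0.0014). *Dhx34*, which takes part in nonsense-mediated decay, was the negative member of the group in both strains, at -0.16 and -0.19 (adjusted p = 0.24 and 0.081).

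Among the 5 transcription coregulators and small RNA factors, all 5 differences were positive in BPN/3J and 3 in BPH/2J. In BPN/3J 1 was called, 20% of the group against 28.7% of all genes. *Ddx20*, a member of the SMN complex that loads small nuclear RNAs with proteins, was called in BPN/3J. It had levels of 6.86, 7.15 and 7.17 at ‘trough’ BP and of 7.28, 7.42 and 7.53 at ‘peak’ BP. All ‘peak’ mice were higher, and the difference was 0.34 (SE 0.10, adjusted p = 0.017), or 0.25 without ‘trough’ mouse 1 (adjusted p = 0.13). In BPH/2J it was 0.15 (adjusted p = 0.39). *Ddx5*, a transcription coregulator, had -0.07 in BPH/2J and 0.05 in BPN/3J (adjusted p = 0.62 and 0.63).

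The 3 helicases that sense viral RNA were negative in BPH/2J, and 2 of 3 were in BPN/3J. In BPN/3J 1 was called, 33.3% of the group against 28.7% of all genes. *Dhx58*, which encodes LGP2, fell in BPN/3J, from 5.39, 5.25 and 5.07 at ‘trough’ BP to 4.64, 4.84 and 5.04 at ‘peak’ BP. The groups lay apart by a narrow margin, and the difference was -0.38 (SE 0.11, adjusted p = 0.020). Without BPN/3J ‘trough’ mouse 1 it was -0.30 (adjusted p = 0.12), and without mouse 3 it was -0.37 (adjusted p = 0.069). In BPH/2J it was -0.21 (adjusted p = 0.26). *Dhx58* was among the dim members. *Ddx58*, which encodes the RNA sensor RIG-I, had -0.10 in BPH/2J and 0.13 in BPN/3J (adjusted p = 0.64 and 0.41), and *Ddx60* had -0.07 and -0.10 (adjusted p = 0.74 and 0.49).

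In the remaining groups 2 members were called, both in BPN/3J, where 28.7% of all genes were. They were 1 of 3 germ line members and 1 of 4 members not listed under a role. Mitochondrial RNA (2 members), mRNA export (2) and DNA (1) had 0 called in limma in either strain. *Ddx25*, known from its role in spermatids, was at 9.14, 9.18 and 9.31 in the BPN/3J ‘trough’ mice and at 9.33, 9.47 and 9.58 at ‘peak’ BP. Its difference of 0.26 (SE 0.08, adjusted p = 0.035) had no overlap. The call was lost without BPN/3J ‘trough’ mouse 1 (adjusted p = 0.15) or 3 (0.11), without BPN/3J ‘peak’ mouse 5 (0.053), 6 (0.069) or 8 (0.052), with values from 0.22 to 0.26, and after quantile normalization (0.15, adjusted p = 0.14). *Dhx32* had 8.17, 8.23 and 8.02 at ‘trough’ BP and 8.19, 8.43 and 8.65 at ‘peak’ BP in BPN/3J. It was called at 0.31 (SE 0.11, adjusted p = 0.047) although its groups overlapped, and is named after its values were seen, as the last of the 10 that rose. The mitochondrial *Ddx28* and *Dhx30*, which help to assemble the mitochondrial ribosome, had 0.19 and 0.04 in BPH/2J and 0.31 and 0.11 in BPN/3J, and none passed. The export factors *Ddx19b* and *Ddx39a* had 0.08 and -0.07 in BPH/2J and 0.24 and 0.18 in BPN/3J, and none passed.

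*Ddx11*, a DNA helicase needed for sister chromatid cohesion, had a BPN/3J difference of -0.34 (SE 0.17, adjusted p = 0.14). Its 3 BPN/3J ‘trough’ mice were at 6.19 to 6.20 and lay above all 6 ‘peak’ mice, at 5.64 to 6.03. In BPH/2J the difference was 0.01 (adjusted p = 0.98), with ‘peak’ mice from 5.29 to 6.29.

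Groups that did not overlap were counted for all members. In BPH/2J 4 members were higher and 5 lower at ‘peak’ BP with no overlap, where 9.07% and 11.6% of all genes were. In BPN/3J there were 9 and 6, where 12.5% and 11.2% of all genes were.

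The comparison of the strains asks which helicases differed between hypertensive and normotensive mice. *Ddx4* was the only member called in the reported fit, at both times, and it was higher in BPH/2J. This is 1 member of 51 higher at each time, against 0.697% of all genes at ‘peak’ BP and 0.381% at ‘trough’ BP. In limma 0 members were called lower (0.687% and 0.186% of all genes), and in either direction 1.38% and 0.567% of all genes were called. With array weights 17 members were higher and 1 lower (*Ddx11*, -0.34, adjusted p = 0.044) at ‘trough’ BP, 35.3% of the members against 25.2% of all genes. At ‘peak’ BP *Ddx4* was then higher and *Ddx59* lower. In that fit BPN/3J ‘trough’ mouse 3, whose pituitary markers were high, weighed 9.44, against 0.409 and 0.636 for mice 1 and 4. The weighted ‘trough’ calls thus took the BPN/3J level mostly from 1 mouse. At an unadjusted p under 0.05 there were 3 members higher and 2 lower at ‘peak’ BP and 9 higher and 0 lower at ‘trough’ BP, where 8.83% and 11.8% of all genes passed in either direction. *Ddx4*, also called vasa, is best known as a marker of germ cells, where it works in the small RNA pathway that silences transposons.

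The *Ddx4* levels of BPH/2J mice at ‘peak’ BP ran from 5.34 over a median of 6.04 to 6.36, and those of BPN/3J mice from 4.26 over 4.51 to 4.65. At ‘trough’ BP the BPH/2J mice 1, 2 and 3 had 5.52, 6.07 and 5.80, and the BPN/3J mice 1, 3 and 4 had 4.42, 4.30 and 4.37. The lowest of the 9 BPH/2J mice lay above the highest of the 9 BPN/3J mice. The strain difference was 1.44 (SE 0.15, adjusted p = 1.9e-05) at ‘peak’ BP and 1.43 (SE 0.21, adjusted p = 0.0024) at ‘trough’ BP. *Ddx4* is among the dim members and its level in BPN/3J was not shown to be above background, so no fold is given. Leaving out any 1 mouse kept it called, between 1.36 and 1.56 at ‘peak’ and between 1.29 and 1.57 at ‘trough’ BP. The ‘trough’ mice whose second label reads BPH/2J had *Ddx4* levels within the range of the BPN/3J ‘peak’ mice. A call ended in 2 fits, a block for the mouse number at ‘trough’ BP (1.30, adjusted p = 0.14), and leaving out the 8 lower-numbered mice at ‘peak’ BP (1.24, adjusted p = 0.11). Differences of *Ddx4* over time were 0.13 in BPH/2J and 0.12 in BPN/3J (adjusted p = 0.73 and 0.64).

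**Figure D4:**
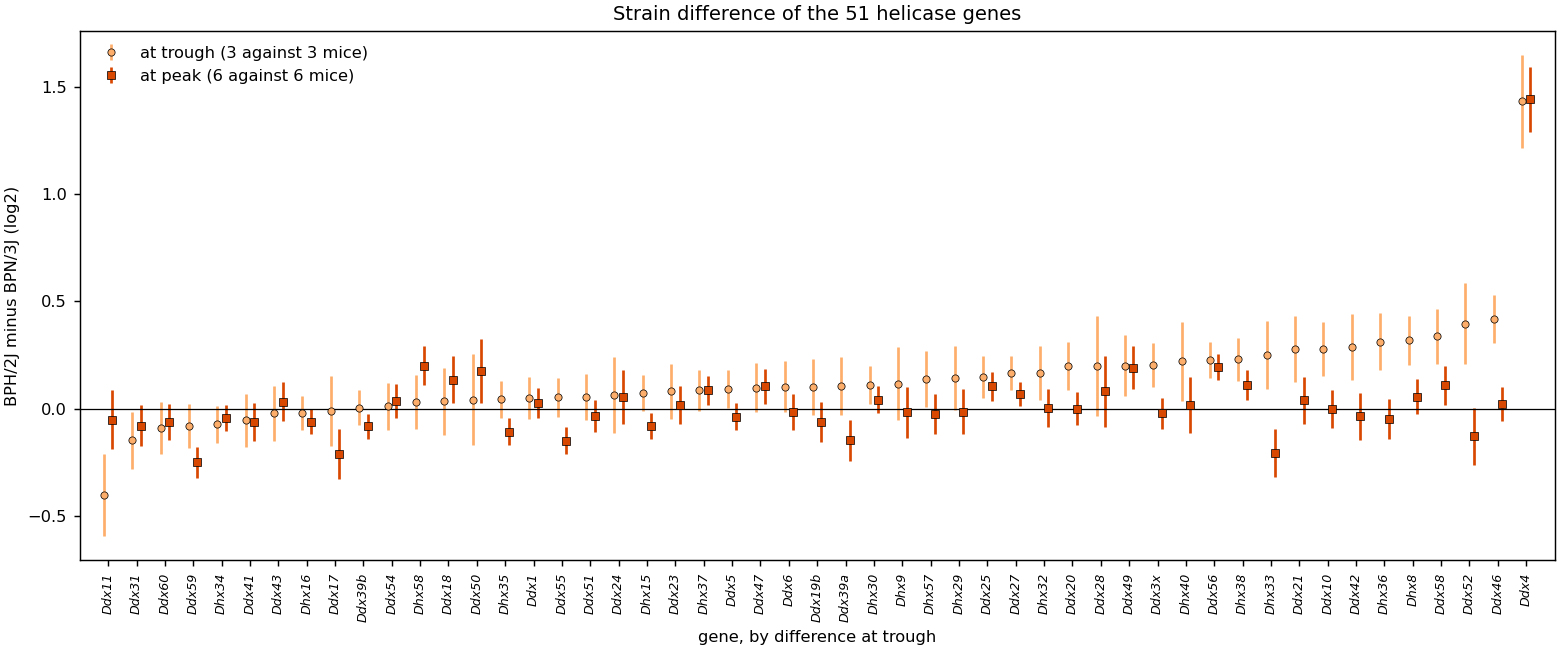
Strain difference (BPH/2J minus BPN/3J, log2) of each of the 51 helicase genes at ‘trough’ (circles) and ‘peak’ BP (squares), ordered by the difference at ‘trough’ BP, with bars of 1 SE. *Ddx4* stands at 1.43 and 1.44, and the other members lie between -0.40 and 0.42.

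Other members had smaller strain differences, and none passed in the reported fit. At ‘peak’ BP the smallest p-values after *Ddx4* belonged to *Ddx59* (-0.25, adjusted p = 0.14) and *Ddx56* (0.19, adjusted p = 0.17). Those of *Ddx55* (-0.15), *Dhx58* (0.20) and *Ddx49* (0.19) had adjusted p-values of 0.43, 0.46 and 0.57. *Ddx59* passed without BPN/3J ‘peak’ mouse 11 (-0.30, adjusted p = 0.031) and with array weights (-0.27, adjusted p = 0.030). *Ddx56* was the other member whose ‘peak’ groups did not overlap, which made 2 higher and 0 lower where 0.903% and 0.798% of all genes were. The median of the members was 0.00 at ‘peak’ BP, with 24 of 51 positive.

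At ‘trough’ BP 42 of the 51 members had a positive strain difference, with a median of 0.10 against 0.01 over all genes. A positive sign was held by 82.4% of the members and 52.2% of all genes. Of the 36 partners and cofactors described below 32 were positive, with a median of 0.13. Of the 20 other RNA helicases described below 13 were, with a median of 0.08. Whether the members differ from these lists was not tested. The members next to *Ddx4* by p were *Ddx46* (0.42, adjusted p = 0.16), *Dhx8* (0.32, 0.35), *Ddx56* (0.23, 0.38), *Ddx58* (0.34, 0.39) and *Dhx36* (0.31, 0.44). *Ddx46* had no overlap between 9.22 to 9.23 in BPH/2J and 8.64 to 9.01 in BPN/3J. Without overlap there were 10 members higher and 1 lower, *Ddx11*, where 13.3% and 9.33% of all genes were. Ribosome assembly helicases were positive for 15 of 16 at a median of 0.09, and splicing helicases for 8 of 10 at 0.08.

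The difference of the time effects, BPH/2J minus BPN/3J, tests whether ‘peak’ and ‘trough’ BP differed by the same amount in the strains. It was called for 0 members and 0% of all genes in the reported limma fit, and for 5 members, 9.8%, and 2.73% of all genes with array weights. In the reported fit 4 members had an unadjusted p under 0.05, as had 8.23% of all genes. These were *Ddx46* (-0.39, SE 0.14), *Dhx33* (-0.45, SE 0.19), *Ddx52* (-0.53, SE 0.23) and *Dhx36* (-0.36, SE 0.16), with adjusted p-values of 0.59 to 0.60. The 5 called with array weights were *Ddx46* (-0.44, adjusted p = 0.026), *Dhx36* (-0.54, 0.033), *Ddx52* (-0.62, 0.036), *Ddx3x* (-0.39, 0.039) and *Ddx55* (-0.32, 0.041). The last pair is named after its values were seen. That fit weighed BPN/3J ‘trough’ mouse 3 at 9.44, and mice 1 and 4 at 0.409 and 0.636. It thus took the BPN/3J ‘trough’ level mostly from 1 mouse, and none of these calls was made in the reported fit. The difference was negative for 40 of 51 members, with a median of -0.12 against 0.00 over all genes. It was also negative for 27 of the 36 partners and cofactors described below, with a median of -0.11. These signs, those of BPN/3J over time and those between the strains at ‘trough’ BP all draw on the same 3 BPN/3J ‘trough’ mice. They are not separate observations.

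A mean deviation per mouse, taken over the 51 members from each gene's mean over all mice, summarizes the family. It was -0.20, -0.14 and -0.03 in BPN/3J ‘trough’ mice 1, 3 and 4, and -0.04, 0.01 and 0.06 in BPH/2J ‘trough’ mice 1, 2 and 3. At ‘peak’ BP it ran from -0.10 to 0.13 in BPH/2J and from -0.09 to 0.12 in BPN/3J. The 4 ‘peak’ mice with the highest numbers (BPH/2J 8 and 9, BPN/3J 10 and 11) were negative and the other 8 positive. Over the 18 arrays it had an r of -0.87 with the array's median over all probesets, a description over arrays that share their normalization. Means over *Ddx* and over *Dhx* genes had an r of 0.75 on the same arrays. Without the 8 lower-numbered ‘peak’ mice, which leaves 2 per strain, 16 of 18 called differences (all but that of *Dhx32*, which was not followed) were no longer called and none changed sign. Without the 4 higher-numbered mice, the negative ones, all 18 were called, which is not an independent check.

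**Figure D5:**
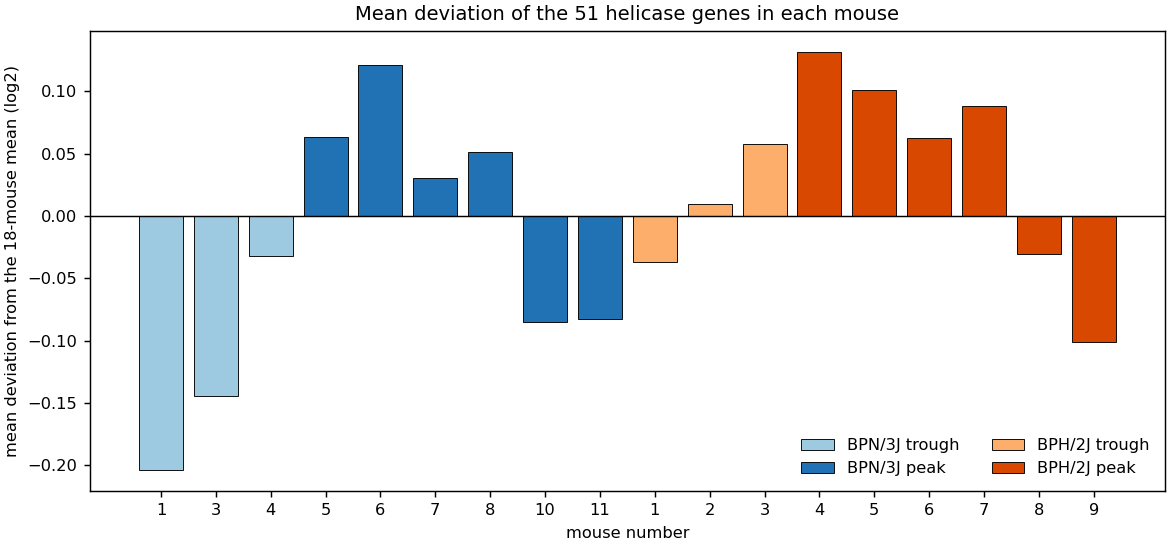
Mean deviation of the 51 helicase genes from their means over all 18 mice (log2), 1 bar per mouse. Bars are coloured by strain and time and labelled by mouse number. BPN/3J ‘trough’ mice 1 and 3 are lowest at -0.20 and -0.14, and ‘peak’ mice 8 and 9 of BPH/2J and 10 and 11 of BPN/3J lie below 0.

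RNA helicases outside these 2 name families were read from a list of 20. In BPH/2J 1 was called higher and 2 lower at ‘peak’ BP, and in BPN/3J 1 higher and 4 lower, which is 15% and 25% against 10.2% and 28.7% of all genes. *Eif4a2*, a translation initiation factor, rose by 0.35 (SE 0.08, adjusted p = 0.010) and 0.49 (SE 0.08, adjusted p = 0.00074), and *Znfx1* fell by 0.48 and 0.42 (adjusted p = 0.0039 and 0.0042). *Upf1*, of nonsense-mediated decay, fell by 0.39 in BPH/2J (adjusted p = 0.043). Between the strains *Eif4a3*, the DEAD box helicase of the exon junction complex, which the naming rule leaves out, was lower in BPH/2J, with differences of -1.85 at ‘peak’ BP (SE 0.21, adjusted p = 4.4e-05) and -1.57 at ‘trough’ BP (SE 0.30, adjusted p = 0.018). It was the 1 of the 20 called there.

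Partners and cofactors of the helicases numbered 36. In BPH/2J 2 were called higher and 2 lower at ‘peak’ BP, in BPN/3J 8 higher and 1 lower, and 0 between the strains at either time in limma, where 2 and 5 had an unadjusted p under 0.05 at ‘peak’ and ‘trough’ BP (8.83% and 11.8% of all genes). The shares called over time were 11.1% in BPH/2J and 25% in BPN/3J, against 10.2% and 28.7% of all genes. *Gemin6*, which sits with *Ddx20* in the SMN complex, rose by 0.87 (SE 0.11, adjusted p = 0.00050) in BPH/2J and 0.74 (SE 0.11, adjusted p = 0.00052) in BPN/3J. *Prpf8*, the core protein of the spliceosome, fell by 0.39 in BPH/2J (SE 0.10, adjusted p = 0.020). *Thoc1*, of the export complex that works with *Ddx39b*, rose by 0.98 in BPN/3J (SE 0.18, adjusted p = 0.0019).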

How the data were processed

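The authors measured hypothalamic RNA of 18 mice on Affymetrix Mouse Gene 1.0 ST arrays, and deposited RMA values on the log2 scale. No version of RMA, or of the limma they used, is stated in what was read. All 34760 probesets had values on every array. Strain and time were taken from the titles, although a second label of the BPN/3J ‘trough’ mice reads BPH/2J. The labels give the tissue as whole hypothalamus, while the paper describes dissection of 2 of its nuclei. Arrays give no depth, so precision rests on how many there were.

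Genes were named by the platform annotation, and all 51 members were found by gene ID in a RefSeq table with 0 symbols changed. R 4.3.3 and limma 3.58.1 fitted 1 model of the 4 groups, with 14 residual and 2.94 prior degrees of freedom. Tests were two-sided, p-values were adjusted over all probesets, and genes were counted at 1 probeset per gene. The 5 comparisons were ‘peak’ against ‘trough’ BP in each strain, the strains against each other at each time, and the difference of the time effects. The members, role groups and lists were chosen with earlier results of these data known. Members named were those called, up to 8 per direction, or the smallest p-values up to 6 where fewer passed, *Ddx46*, members with 1 mouse apart, and the extremes of each role group over time. The neighbours of *Ddx4* were chosen after its values were seen. The fit was tested on simulated data. Alternatives were quantile normalization, median centring, a filter on dim probesets, weighted arrays, another prior (trended and robust), fits of the compared groups alone, the mean of a gene's probesets, a block for the mouse number, and fits without the least correlated arrays, the higher- or lower-numbered ‘peak’ mice, or each mouse. Python 3.11.15 and matplotlib 3.10.9 drew the figures.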

Additional observations from a re-analysis of the deposited data

Results flagged for a closer look

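Of 102 groups of 6 ‘peak’ mice, 1 per member and strain, 10 had a single mouse apart from the others by Dixon's test, where chance gives about 1 in 20. BPH/2J ‘peak’ mouse 9 was low in *Ddx20* (7.12), *Ddx46* (8.89) and *Dhx29* (8.05). BPN/3J ‘peak’ mouse 11 was low in *Ddx23* (8.91) and *Ddx49* (7.43) and high in *Ddx19b* (7.75). BPN/3J ‘peak’ mouse 10 was low in *Ddx17* (9.93), and BPH/2J ‘peak’ mouse 8 in *Dhx16* (7.69). The other flags were high values, of *Ddx51* in BPH/2J ‘peak’ mouse 4 (7.56) and of *Dhx34* in BPN/3J ‘peak’ mouse 7 (6.93).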

How the results depend on the processing

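Of the 18 called differences followed, all but that of *Dhx32*, none changed sign under any alternative. All 18 were kept with array weights, the trend and robust prior, the mean of a gene's probesets or without the 4 higher-numbered ‘peak’ mice, 16 after quantile normalization, 15 after median centring and 11 in fits of only the 2 groups compared. That fit lost *Ddx20*, *Ddx25*, *Ddx3x*, *Ddx56*, *Dhx16* and *Dhx58* in BPN/3J and *Dhx38* in BPH/2J. The fit without the 4 higher-numbered mice is not an independent check, since these were the ‘peak’ mice low in the members. Without the 2 least correlated arrays *Dhx16* in BPN/3J was lost (-0.18, adjusted p = 0.059). Arrays carry no measure of depth, and 3 ‘trough’ mice per strain limit what can be called. Ages and times stay confounded in all fits, and the cause of the changes below was not tested.

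In BPH/2J 1 member was higher and 3 lower at ‘peak’ BP. The number higher became 2 with dim probesets left out or with the trend and robust prior, 9 with array weights, 12 without the higher-numbered and 0 without the lower-numbered ‘peak’ mice. The share of all genes higher moved the same way, from 4.63% to 8.73%, 5.36%, 15.3%, 12.4% and 0.782% in that order. The number lower became 5 after quantile normalization, 1 after median centring, 7 with array weights and 0 without the lower-numbered mice. All genes lower went from 5.61% to 6.25%, 2.81%, 15.5% and 0.878%. In BPN/3J 10 were higher and 3 lower. The number higher became 27 with array weights, 5 in the fit of 2 groups, 17 without the 2 least correlated arrays, 21 without the higher-numbered and 1 without the lower-numbered mice. All genes higher went the same way, from 13.9% to 26.3%, 8.38%, 18.3%, 21.5% and 3.12%. The number lower became 6 after quantile normalization, 7 with array weights, 1 in the fit of 2 groups, 5 without the higher-numbered and 0 without the lower-numbered mice. All genes lower went from 14.7% to 15.7%, 34.2%, 6.76%, 20.3% and 2.12%. Leaving out 1 mouse gave 0 to 2 higher and 0 to 3 lower in BPH/2J, and 5 to 14 higher and 1 to 4 lower in BPN/3J. The higher count in BPH/2J was 0 without ‘trough’ mouse 1, 2 or 3 or ‘peak’ mouse 4, 5 or 7, and 2 without ‘peak’ mouse 9, and the lower count was 1, 1 and 0 without ‘trough’ mouse 1, 2 or 3. In BPN/3J 5 were higher without ‘trough’ mouse 1 or 3, where 6.73% and 8.07% of all genes were. Without mouse 3 there was 1 lower, and 5.6% of all genes. The median over members became -0.0798 in BPH/2J and 0.0307 in BPN/3J without the lower-numbered mice, and 0.25 in BPN/3J after median centring.

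The strain counts of 1 higher became 0 at both times with dim probesets left out, which removes *Ddx4*, 0 at ‘peak’ BP without the lower-numbered mice (*Ddx4* 1.24, adjusted p = 0.11), and 17 at ‘trough’ BP with array weights. The count of 0 lower became 1 at ‘peak’ BP with array weights, without the 2 least correlated arrays or without the higher-numbered mice, 1 at ‘trough’ BP with array weights, and between 0 and 1 at ‘peak’ BP when 1 mouse was left out (1 without BPN/3J ‘peak’ mouse 11). The difference of the time effects gave 5 called members with array weights, which put 9.44 on BPN/3J ‘trough’ mouse 3.

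The mouse numbers do not pair the mice, with residual correlations from -0.30 to 0.19 in 6 pairs. With the number as a replicate block, on 12 arrays, *Ddx4* differed by 1.30 at ‘trough’ BP (adjusted p = 0.14), so that 0 members were called there, and *Ddx46* by -0.0029 at ‘peak’ BP. No paired analysis was possible for time because no number occurs at both times within a strain.

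Differences that turned sign had not passed in the reported fit. *Ddx11* in BPH/2J was -0.13 with array weights and -0.17 without the higher-numbered mice, and *Ddx39a* was 0.0013 and 1e-04. Quantile normalization gave 0.0246 for *Ddx43* in BPH/2J, and -0.0507 for *Ddx5* and -0.008 for *Dhx30* in BPN/3J. Median centring gave 0.0565 and 0.0389 for *Ddx43* in BPH/2J and BPN/3J. Without the lower-numbered mice BPH/2J had -0.26 for *Ddx28*, 0.18 for *Ddx43*, 0.024 for *Ddx60* and -0.0717 for *Dhx9*, BPN/3J had -0.0765 for *Ddx28* and -0.0722 for *Ddx58*, and *Ddx55* differed by 0.0101 between the strains at ‘peak’ BP. *Ddx46* was -0.031 there without the 2 least correlated arrays. Leaving out 1 mouse gave -0.14 to 0.12 for *Ddx11*, -0.0796 to 0.0627 for *Ddx43* and -0.0328 to 0.0855 for *Dhx30* in BPH/2J, -0.0979 to 0.0174 for *Ddx43* in BPN/3J and -0.0214 to 0.0625 for *Ddx46* between the strains at ‘peak’ BP.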

Other observations

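The genes beside *Ddx4* in RefSeq order were read for the strain comparison after its values had been seen. *Slc38a9*, its neighbour on 1 side, differed by 0.34 at ‘peak’ BP (SE 0.11, adjusted p = 0.21) and by 0.81 at ‘trough’ BP (SE 0.16, adjusted p = 0.024), higher in BPH/2J. *Il31ra*, on the other side, differed by 0.00 and 0.01 (adjusted p = 1.00 and 0.99). *Ankrd55*, beyond *Il31ra* and *Il6st*, differed by 0.33 and 0.42 (adjusted p = 0.16 and 0.31, unadjusted p = 0.0043 and 0.0084 in limma). *Plpp1*, next to *Slc38a9*, differed by 0.12 and 0.37 (adjusted p = 0.71 and 0.28), *Map3k1* by 0.02 and 0.37 (0.98 and 0.42), *Il6st* by 0.00 and 0.26 (1.00 and 0.60) and *Mtrex* by -0.12 and -0.06 (0.80 and 0.92). *Dhx29*, a member 4 genes away, differed by -0.01 and 0.14 (adjusted p = 0.99 and 0.75).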
